A study of Mus musculus with 16 samples.

Results

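The 34 genes described here encode the enzymes of glycolysis, the pyruvate dehydrogenase complex and its kinase, the subunits of hypoxia-inducible factor (HIF), the prolyl hydroxylases and a set of HIF targets. They were chosen as named rows of the deposited gene count tables, 34 of 21497 genes in the SREBP2 experiment and of 22001 genes in the IRF7 experiment. Of these, 31 stood in the authors' filtered table of 10764 genes for the SREBP2 experiment and 33 in that of 10788 genes for the IRF7 experiment. Egln3 and Ankrd37 passed the filter in the IRF7 experiment alone, Ddit4 passed it in neither, and no test was made for a gene that did not pass. The rule names genes of known pathways and uses no measured value, but the list was drawn up with earlier results of these data known.

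Glycolysis breaks glucose down to pyruvate in the cytosol. Pyruvate is either reduced to lactate by lactate dehydrogenase or oxidised in mitochondria by the pyruvate dehydrogenase complex, which pyruvate dehydrogenase kinases switch off. HIF is a dimer of an oxygen-labile alpha subunit and the stable partner ARNT. With oxygen present, prolyl hydroxylases mark the alpha subunit for destruction, and without it HIF raises the transcription of glycolytic genes, Pdk1, Vegfa, Bnip3 and Egln3, among others. Osteoclasts, the bone-resorbing cells that macrophage precursors form under M-CSF and RANKL, are rich in mitochondria and acidify the bone surface at a high cost in energy.

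The series holds 16 RNA-seq libraries of female mouse bone marrow-derived macrophages in 8 groups of 2, made in 2 experiments of 8 libraries. The SREBP2 experiment set cells of SREBP2 flox/flox LysM cre mice (SREBP2-deficient) against cells of LysM cre control mice, and the IRF7 experiment set cells of IRF7 deficient mice against cells of C57BL6 wild-type mice. Each genotype was cultured with RANKL (40 ng/ml, 3 days) on top of M-CSF (23.3 ng/ml, from conditioned medium), or with M-CSF alone. Cells with RANKL are called osteoclasts below and cells with M-CSF alone macrophages. LysM-Cre is expressed in myeloid cells from the lysozyme gene Lyz2, and both groups of the SREBP2 experiment carried it, whereas no Cre is named for the IRF7 experiment. The labels give no age for the mice, and the RANKL dose above is that of the labels. The study's methods give another dose for mouse cultures, and the doses in its figure legends vary, with some equal to that of the labels. The series calls the 2 libraries of a group biological replicates, without saying whether libraries with the same replicate number shared animals or culture days, and 2 against 2 libraries cannot reach an exact permutation p below 0.333.

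Counts per library summed to 7703178 to 13387849 in the SREBP2 experiment and 8178505 to 12746916 in the IRF7 experiment. The targeted transcripts matched the labels: Srebf2 had 0.835 and 0.131 CPM, counts scaled to a common library size, in SREBP2-deficient osteoclasts and 0.963 and 0.880 CPM in SREBP2-deficient macrophages, against 281 and 250.4 CPM and 233 and 266 CPM in LysM-Cre cells. Irf7 had 2.11 and 0.517 CPM in IRF7-deficient osteoclasts and 0.959 and 0.325 CPM in IRF7-deficient macrophages, against 55.1 and 43.3 CPM and 80.8 and 61.5 CPM in wild-type cells. The summed level of 11 osteoclast markers was 32176 to 77215 CPM in the 8 RANKL libraries and 81.3 to 149 CPM in the 8 M-CSF libraries. Erythroid markers summed to at most 0.758 CPM in any library, but only 2 of the 7 were among the counted genes of the SREBP2 experiment and 5 in the IRF7 experiment. The sum of 10 neutrophil markers, which included S100a8 and S100a9, was 4.78 to 20 CPM with RANKL and 67.3 to 1177 CPM with M-CSF. The 8 macrophage markers, Adgre1 and Csf1r among them, summed to 5611 to 7954 CPM with RANKL and 5909 to 35866 CPM with M-CSF, of which Lyz2, the site of the Cre, made up 13.4 to 38.2 CPM per library in the SREBP2 experiment and 2513 to 29377 CPM in the IRF7 experiment. Lower or higher transcript levels in these bulk cultures cannot be told apart from a change in the share of cells that carry them.

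HIF binds DNA at a short core, ACGTG or GCGTG. RefSeq promoters (build GRCm38.p6) matched 33 of the 34 genes, and the 250 bases before the start were searched for both cores on both strands, so that the complements CACGT and CACGC count as well and matches may overlap. At least 1 promoter of 30 of the 33 genes held a core, which is 90.9%, against 41.5% of 27025 genes with a promoter. A gene with more promoters has more occasions for a match. Counted by promoter, 39 of 49 in the list held a core (79.6%), against 38.6% of 32851 promoters. The core ACGTG alone was found for 19 of the 33 genes (57.6%), against 18.5% of all genes. By promoter these shares were 46.9% and 16.6%. Dlat, Gpi1 and Tpi1 had no match in this window, which says nothing of HIF elsewhere. The list was built around known HIF targets and glycolysis, and the difference in shares was not tested. A match is a description of letters and no evidence of binding.

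The 5 promoters below belong to genes whose level differed between replicate libraries (Bnip3, Ankrd37, Egln3 and Ldha) and to a gene that was called in no RANKL comparison (Pgk1), and were picked after their values were seen. They are given 5′ to 3′ on the gene's strand, with the cores in capitals, and a core on the other strand reads as CACGT or CACGC. Bnip3 has 5 matches at chr7:138909507-138909756 (minus strand), Ankrd37 has 4 at chr8:45999851-46000100 (minus strand), Egln3 has 1 at chr12:54203875-54204124 (minus strand), the upstream start of Ldha has 5 at chr7:46845554-46845803 (plus strand) and Pgk1 has 2 at chrX:106186850-106187099 (plus strand).
Bnip3: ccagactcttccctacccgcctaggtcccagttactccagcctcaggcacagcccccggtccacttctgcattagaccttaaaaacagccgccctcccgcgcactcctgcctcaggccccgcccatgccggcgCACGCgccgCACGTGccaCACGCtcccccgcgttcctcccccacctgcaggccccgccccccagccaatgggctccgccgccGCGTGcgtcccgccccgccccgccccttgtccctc
Ankrd37: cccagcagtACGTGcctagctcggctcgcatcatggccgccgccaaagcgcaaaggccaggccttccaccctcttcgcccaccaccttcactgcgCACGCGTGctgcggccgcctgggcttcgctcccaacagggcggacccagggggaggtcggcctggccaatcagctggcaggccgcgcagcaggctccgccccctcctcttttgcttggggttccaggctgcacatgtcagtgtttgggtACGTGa
Egln3: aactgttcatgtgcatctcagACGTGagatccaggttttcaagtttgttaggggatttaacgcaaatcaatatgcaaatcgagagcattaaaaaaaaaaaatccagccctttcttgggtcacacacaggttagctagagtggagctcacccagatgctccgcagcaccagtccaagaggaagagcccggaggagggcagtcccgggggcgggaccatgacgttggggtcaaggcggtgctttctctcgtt
Ldha: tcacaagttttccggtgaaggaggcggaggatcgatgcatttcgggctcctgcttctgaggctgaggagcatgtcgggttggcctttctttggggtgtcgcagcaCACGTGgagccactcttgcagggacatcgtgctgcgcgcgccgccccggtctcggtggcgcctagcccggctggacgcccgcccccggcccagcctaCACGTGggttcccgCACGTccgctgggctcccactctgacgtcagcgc
Pgk1: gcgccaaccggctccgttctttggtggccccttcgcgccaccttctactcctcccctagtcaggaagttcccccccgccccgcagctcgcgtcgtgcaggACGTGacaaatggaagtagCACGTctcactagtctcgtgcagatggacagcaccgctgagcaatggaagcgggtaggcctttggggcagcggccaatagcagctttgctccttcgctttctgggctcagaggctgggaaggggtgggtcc
The matches lay 35 to 117 bases before the start in Bnip3 and 34 to 145 bases before it in Ldha, where the letters CACGTG match on both strands. Ndrg1 was not matched to a promoter.

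Per kilobase of exon, Aldoa (fructose-bisphosphate aldolase) was the most abundant of the 34 transcripts in wild-type osteoclasts at 775 ± 253 CPM per kb (SD, n = 2), followed by Pkm (pyruvate kinase) at 461 ± 80.6, Gapdh at 457 ± 93.2 and Ldha (lactate dehydrogenase A) at 381 ± 98.6 CPM per kb. In wild-type macrophages Pkm was first at 689 ± 97.4, ahead of Aldoa at 547 ± 167 and Gapdh at 506 ± 169 CPM per kb (SD, n = 2). Neighbours in these orders had overlapping SDs, Aldoa and Pkm included. LysM-Cre osteoclasts had the same order, with Aldoa at 652 ± 39.7, Pkm at 317 ± 5.54 and Gapdh at 306 ± 17.8 CPM per kb, and there Aldoa stood above Pkm by more than both SDs. Ddit4, a stress-induced inhibitor of mTORC1 signalling, and Egln3 were at the bottom with 1.67 ± 1.44 and 1.89 ± 2.42 CPM per kb in wild-type osteoclasts. Of the 34 genes, 12 share over 5% of their 50-base stretches with other annotated genes, so that their levels are uncertain: Gapdh (82.5%), Eno1 (72.2%), Pgk1 (68.0%), Pgam1 (41.5%), Pkm (34.4%), Pdhb (30.3%), Ldhb (27.0%), Bnip3 (21.9%), Gpi1 (19.3%), Ldha (16.6%), Aldoa (13.5%) and Tpi1 (7.51%). A further limit is that 16 of the genes overlap a gene on the other strand, and the strand setting of the counting is not given.

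RANKL against M-CSF moved pyruvate oxidation genes up and Hk3, Pfkfb4 and Hif1a down in all 4 genotypes. A gene was called at an adjusted p under 0.05 in edgeR's quasi-likelihood test, fitted on all genes of an experiment. In SREBP2-deficient cells 15 of 31 genes rose and 6 fell, where 28.6% of all genes tested rose and 27.6% fell. In LysM-Cre control cells 12 of 31 rose and 7 fell, against 29% and 28.6% of all genes. In IRF7-deficient cells 8 of 33 rose and 3 fell, against 25.8% and 23.5% of all genes, and in wild-type cells 8 of 33 rose and 4 fell, against 24.9% and 22.5%. The share that rose was thus above that of all genes in the SREBP2 experiment and near it in the IRF7 experiment, and the share that fell was below it in each genotype. The median log2 fold change of the listed genes was 0.44 in SREBP2-deficient, 0.13 in LysM-Cre, 0.49 in IRF7-deficient and 0.31 in wild-type cells, with medians over all genes between 0.00 and 0.01. In the IRF7 experiment these medians rested on 1 library each: without replicate 1 of the osteoclasts they were -0.09 in IRF7-deficient and -0.22 in wild-type cells. Without replicate 1 of the SREBP2-deficient osteoclasts the median there was 0.15.

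Called in all 4 genotypes were 11 genes, of which 8 rose (Hk1, Pfkm, Aldoc, Ldhb, Pdk1, Pdha1, Pdhb and Dlat) and 3 fell (Hk3, Pfkfb4 and Hif1a). These are 25.8% and 9.68% of the 31 listed genes tested in both experiments, where 20.2% and 16.3% of the 10598 genes tested in both rose and fell in all 4. Another 6 were called in both genotypes of the SREBP2 experiment and in neither of the IRF7 experiment: Aldoa, Bnip3, Vegfa and Ndrg1 rose, and Hk2 and Pfkfb3 fell. The difference between the experiments was not tested. Tested in all 4 genotypes and called in none were 9 genes (29%, where 29.8% of all genes were): Gpi1, Pfkl, Pfkp, Gapdh, Pgk1, Eno1, Arnt, P4ha1 and Mxi1.

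**Figure D1:**
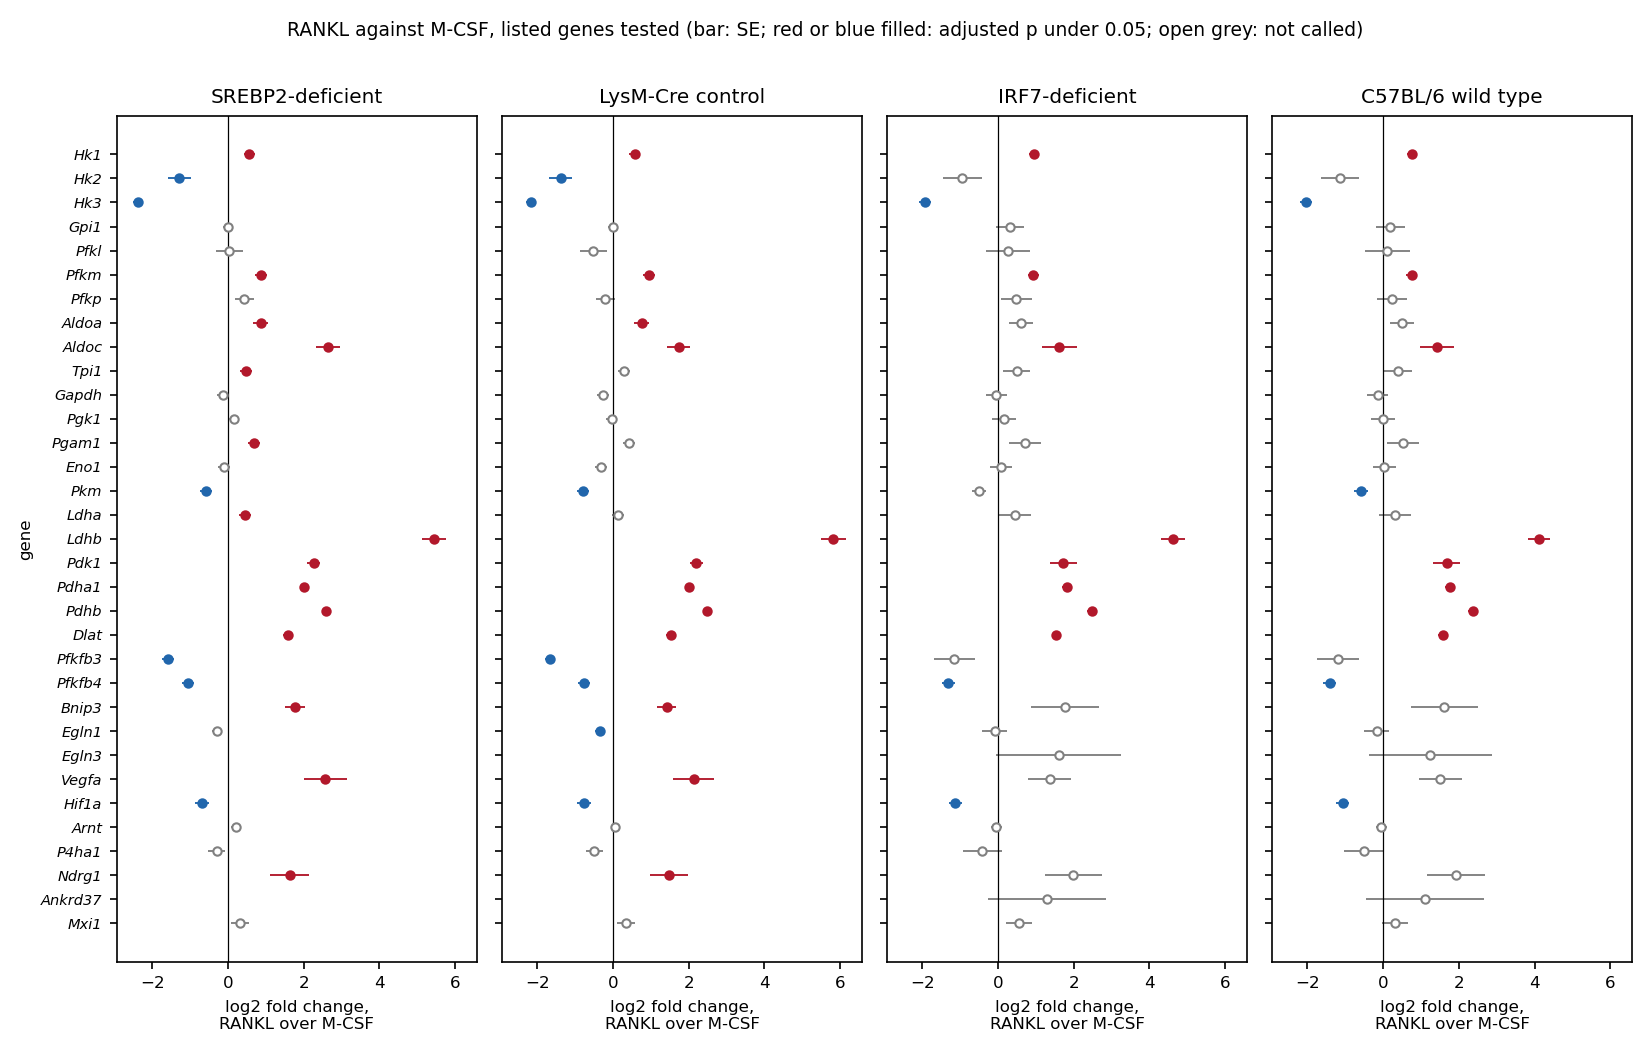
Log2 fold change of each listed gene tested, RANKL over M-CSF (x axis), by gene (y axis, ordered by role) in the 4 genotypes, with the SE as a bar and genes called at an adjusted p under 0.05 filled. Ldhb stands farthest to the right in every panel at 4.13 to 5.83, Hk3 farthest to the left at -2.37 to -1.92, and the SEs of Bnip3, Egln3 and Ankrd37 are wide in the IRF7 experiment.

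The pyruvate dehydrogenase complex and lactate dehydrogenase B rose in all 4 genotypes. Pdhb (chr14:8165996-8173025 in mm10, minus strand), the beta subunit of the decarboxylase that opens the complex's reaction, had 348 and 344 CPM in SREBP2-deficient and 347 and 313 CPM in LysM-Cre osteoclasts, against 55.4 and 58.6 CPM and 57.6 and 59.5 CPM in the macrophages of the same genotypes. In the IRF7 experiment it had 369.8 and 332 CPM in IRF7-deficient and 350.0 and 291 CPM in wild-type osteoclasts, against 62.4 and 63.4 CPM and 58.7 and 64.5 CPM in macrophages. Every osteoclast library lay above every macrophage library, and the log2 fold changes ran between 2.38 and 2.60 (adjusted p = 1.4e-05 in wild-type and 7.5e-07 in SREBP2-deficient cells). Pdha1, the alpha subunit of the same enzyme, encoded on chromosome X, had 468 and 488 CPM in SREBP2-deficient and 486 and 448 CPM in LysM-Cre osteoclasts and 482 and 425 CPM in IRF7-deficient and 436 and 382 CPM in wild-type osteoclasts. Its macrophage libraries held 114 and 122, 118 and 114, 132 and 126 and 125 and 117 CPM in the same order of genotypes. The groups did not overlap in any genotype, with log2 fold changes of 2.02 ± 0.11, 2.0 ± 0.11, 1.82 ± 0.13 and 1.76 ± 0.13 (SE). Dlat, the acetyltransferase core of the complex, had 159.5 and 199 CPM in SREBP2-deficient, 169 and 187 in LysM-Cre, 177 and 209.9 in IRF7-deficient and 179 and 179 CPM in wild-type osteoclasts, against 57.7 to 68.3 CPM in the 8 macrophage libraries, and rose by log2 fold changes of 1.53 to 1.59 in the 4 genotypes. All 3 genes kept their call when any 1 library was left out.

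Pdk1, the kinase that inhibits the complex and a known HIF target, rose as well. It had 269 and 338 CPM in SREBP2-deficient and 235 and 323 CPM in LysM-Cre osteoclasts, against 61.7 and 64.9 CPM and 62.1 and 59.5 CPM in macrophages (log2 fold changes 2.26 ± 0.18 and 2.20 ± 0.17, SE). The other experiment gave 311 and 261 CPM in IRF7-deficient and 298 and 222 CPM in wild-type osteoclasts, against 64.6 and 109 CPM and 54.3 and 107 CPM in macrophages (log2 fold changes 1.72 ± 0.36 and 1.69 ± 0.36, adjusted p = 0.0051 and 0.0058). Its macrophage libraries of the IRF7 experiment split by replicate number while its groups stayed apart. Without replicate 1 of both osteoclast groups of that experiment, its calls were lost (adjusted p = 0.066 in IRF7-deficient and 0.084 in wild-type cells).

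Ldhb (chr6:142490249-142507957 in mm10, minus strand), whose product, the heart-type lactate dehydrogenase subunit, is known to favour the turning of lactate into pyruvate, had the highest fold change of the list. It was at 125 and 201 CPM in SREBP2-deficient and 156 and 229.7 CPM in LysM-Cre osteoclasts, against 3.37 and 4.01 CPM and 3.23 and 3.54 CPM in macrophages. In IRF7-deficient osteoclasts it was at 109 and 171 CPM and in wild-type osteoclasts at 105 and 120.2 CPM, against 4.27 and 7.26 CPM and 5.87 and 7.03 CPM in macrophages. The log2 fold changes were 5.45 ± 0.32, 5.83 ± 0.32, 4.62 ± 0.31 and 4.13 ± 0.30 (SE) in SREBP2-deficient, LysM-Cre, IRF7-deficient and wild-type cells. Ldhb was higher in replicate 2 of all 8 groups. Ldha, the muscle-type subunit and a HIF target, moved less: it had 1052 and 819 CPM in SREBP2-deficient osteoclasts, against 683 and 686 CPM in macrophages (log2 fold change 0.45 ± 0.15, SE, adjusted p = 0.033). That call was lost when either macrophage library or replicate 1 of the osteoclasts was left out (adjusted p = 0.11, 0.11 and 0.21), and with scaling to library totals (0.14). In the other genotypes Ldha was not called (0.13 ± 0.15, 0.44 ± 0.43 and 0.31 ± 0.43 in LysM-Cre, IRF7-deficient and wild-type cells).

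**Figure D2:**
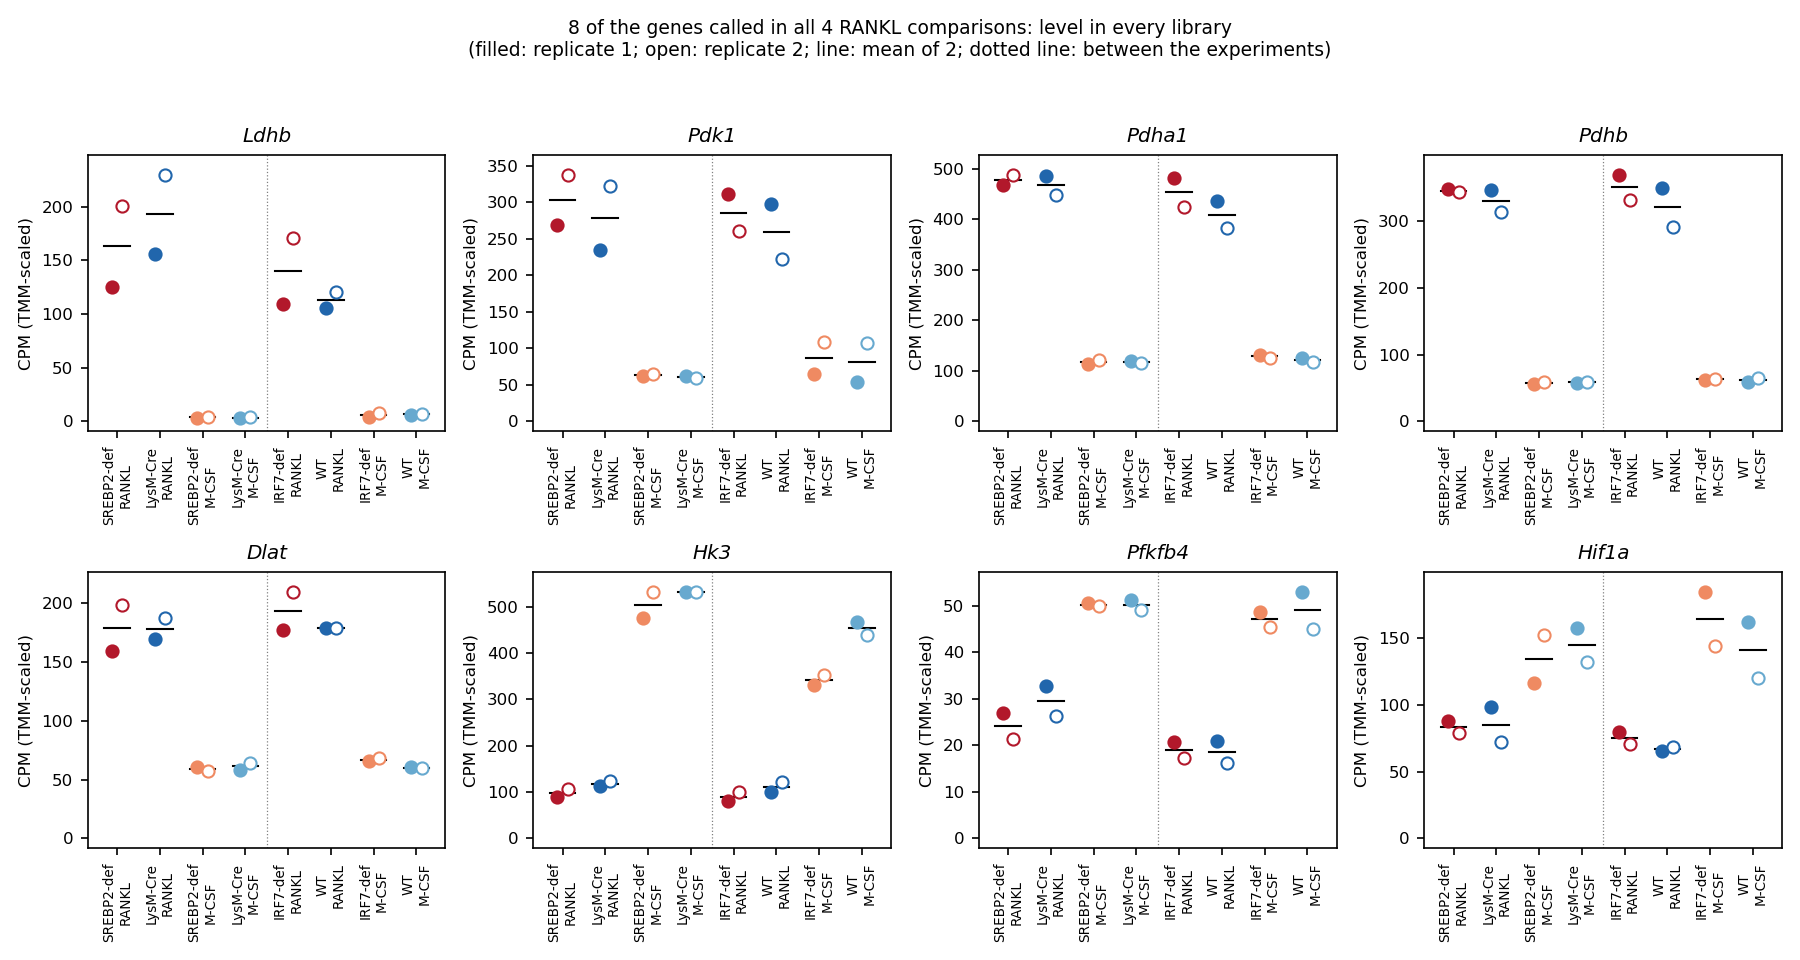
CPM (y axis, linear) in every library of the 8 groups (x axis) for 8 of the 11 genes called in all 4 RANKL comparisons, with filled points for replicate 1, open points for replicate 2 and a line at their mean. Osteoclast libraries lie above macrophage libraries for Ldhb, Pdk1, Pdha1, Pdhb and Dlat and below them for Hk3, Pfkfb4 and Hif1a in every genotype.

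The hexokinases, which phosphorylate glucose, moved in opposite directions. Hk3, an isoform known from myeloid cells, had 88.8 and 106 CPM in SREBP2-deficient and 114 and 123 CPM in LysM-Cre osteoclasts, against 476 and 530.4 CPM and 532 and 531 CPM in macrophages. Hk3 had 79.8 and 100.2 CPM in IRF7-deficient and 99.3 and 122 CPM in wild-type osteoclasts, against 331 and 352 CPM and 467 and 439 CPM in macrophages. It fell in all 4 genotypes without overlap, with log2 fold changes of -2.37, -2.17, -1.92 and -2.03 in SREBP2-deficient, LysM-Cre, IRF7-deficient and wild-type cells. Hk1, the widely expressed isoform that binds mitochondria, rose less: it had 226 and 287, 238 and 276, 303 and 278 and 297 and 242 CPM in SREBP2-deficient, LysM-Cre, IRF7-deficient and wild-type osteoclasts, against 143 to 178 CPM over the 8 macrophage libraries. Its log2 fold changes were 0.57 ± 0.14, 0.57 ± 0.14, 0.95 ± 0.13 and 0.76 ± 0.13 (SE) in the same order, and scaling to library totals in place of TMM took the call away in SREBP2-deficient (adjusted p = 0.061) and LysM-Cre cells (adjusted p = 0.052). Without replicate 2 of the LysM-Cre osteoclasts the call there was lost as well (adjusted p = 0.062).

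Hk2, the hexokinase that insulin and HIF induce, had 46.4 and 28.6 CPM in SREBP2-deficient and 45.0 and 26.6 CPM in LysM-Cre osteoclasts, against 79.7 and 103 CPM and 97.6 and 89.0 CPM in macrophages. It fell in both (-1.29 ± 0.30 and -1.39 ± 0.30, SE), and the call in SREBP2-deficient cells was lost without replicate 2 of their macrophages (adjusted p = 0.052). In IRF7-deficient and wild-type osteoclasts it stood at 76.6 and 30.3 CPM and 76.2 and 28.1 CPM, against 103 and 103 CPM and 129 and 98.9 CPM in macrophages (adjusted p = 0.16 and 0.1). Replicate 1 of the osteoclasts was the higher one in all 4 genotypes.

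Phosphofructokinase makes fructose-1,6-bisphosphate, and the PFKFB enzymes make and break fructose-2,6-bisphosphate, which activates it. Pfkm, the muscle-type phosphofructokinase, had 26.0 and 31.1, 28.1 and 31.6, 31.7 and 35.6 and 33.1 and 31.8 CPM in SREBP2-deficient, LysM-Cre, IRF7-deficient and wild-type osteoclasts, against 16.9 and 14.4, 15.2 and 15.9, 18.5 and 16.9 and 17.3 and 21.3 CPM in macrophages. It rose in all 4 without overlap, by 0.87, 0.94, 0.93 and 0.75 on the log2 scale. The isoforms Pfkl and Pfkp were called in none, with log2 fold changes of -0.52 to 0.26 and -0.20 to 0.48. Pfkfb4, an isoform first known from testis, had 26.9 and 21.4, 32.8 and 26.2, 20.7 and 17.3 and 20.8 and 16.2 CPM in osteoclasts of the same 4 genotypes, against 45.0 to 53.0 CPM over the 8 macrophage libraries. It fell in each, with changes of -1.06 ± 0.16, -0.77 ± 0.15, -1.31 ± 0.17 and -1.41 ± 0.17 on the log2 scale (SE), and kept the call when any 1 library was left out. Pfkfb3, the inducible isoform with high kinase activity, had 10.4 and 9.31 CPM in SREBP2-deficient and 9.79 and 9.09 CPM in LysM-Cre osteoclasts, against 29.9 and 29.4 CPM and 31.1 and 28.7 CPM in macrophages (log2 fold changes -1.59 ± 0.15 and -1.66 ± 0.14, SE). Its osteoclast libraries of the IRF7 experiment split, at 23.9 and 7.84 CPM in IRF7-deficient and 23.1 and 8.19 CPM in wild-type cells, against 31.1 and 39.4 CPM and 35.9 and 33.3 CPM in macrophages, and the call failed in both (adjusted p = 0.12 and 0.12).

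Of the aldolases, which split the 6-carbon sugar, Aldoc rose in all 4 genotypes and Aldoa in both genotypes of the SREBP2 experiment. Aldoc, the isoform known from brain, had 116 and 67.9 CPM in SREBP2-deficient and 112 and 90.9 CPM in LysM-Cre osteoclasts, against 17.9 and 11.4 CPM and 27.0 and 33.9 CPM in macrophages. Aldoc had 116 and 59.1 CPM in IRF7-deficient and 125 and 58.4 CPM in wild-type osteoclasts, against 26.9 and 29.9 CPM and 24.5 and 43.6 CPM in macrophages. It rose in all 4 by 2.65 ± 0.32, 1.73 ± 0.30, 1.62 ± 0.46 and 1.42 ± 0.45 on the log2 scale (SE). The calls in the IRF7 experiment were the weakest of the 11 genes: the IRF7-deficient one was lost without either macrophage library (adjusted p = 0.10 and 0.077) or without replicate 1 of the osteoclasts (0.14), and the wild-type one without replicate 1 of the macrophages (0.17) or of the osteoclasts (0.20). Aldoa, the widely expressed isoform, had 3415 and 2239 CPM in SREBP2-deficient and 2524 and 2316 CPM in LysM-Cre osteoclasts, against 1546 and 1559 CPM and 1248 and 1613 CPM in macrophages, and rose in both (0.86 ± 0.21 and 0.76 ± 0.20, SE). The LysM-Cre call was lost without replicate 1 of the macrophages (adjusted p = 0.085). In IRF7-deficient and wild-type cells Aldoa had log2 fold changes of 0.60 ± 0.32 and 0.50 ± 0.32 (SE) and was not called, with 3439 and 2356 CPM and 3539.6 and 2213 CPM in osteoclasts, against 1614 and 2207 CPM and 1591 and 2465 CPM in macrophages, so that the wild-type groups overlapped.

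Of the other glycolytic enzymes, 4 were called in no genotype and 3 in at least 1. Gpi1 (glucose-6-phosphate isomerase), Gapdh (glyceraldehyde-3-phosphate dehydrogenase), Pgk1 (phosphoglycerate kinase) and Eno1 (enolase) were called in no genotype, with log2 fold changes of 0.00 to 0.31 for Gpi1, -0.26 to -0.04 for Gapdh, -0.04 to 0.16 for Pgk1 and -0.32 to 0.08 for Eno1. Tpi1 (triosephosphate isomerase) and Pgam1 (phosphoglycerate mutase) rose in SREBP2-deficient cells alone among the 4 genotypes (0.47 ± 0.16 and 0.69 ± 0.16, SE), with values of 0.28 to 0.49 and 0.42 to 0.72 in the other 3. The interaction of SREBP2 genotype with RANKL was not called for either. The Tpi1 call was lost without either macrophage library, without replicate 1 of the osteoclasts, or with scaling to library totals (adjusted p = 0.12). Pkm, which closes the pathway, had 2060.4 and 1652 CPM in SREBP2-deficient and 1567 and 1606 CPM in LysM-Cre osteoclasts, against 2663 and 2887 CPM and 2532 and 2963 CPM in macrophages. Pkm had 2646 and 2069 CPM in IRF7-deficient and 2588 and 2018 CPM in wild-type osteoclasts, against 3105 and 3587 CPM and 3103 and 3792 CPM in macrophages. It fell in 3 genotypes (-0.58 ± 0.15 in SREBP2-deficient, -0.79 ± 0.15 in LysM-Cre and -0.58 ± 0.19 in wild-type cells, SE) and was not called in IRF7-deficient cells (-0.51 ± 0.19, adjusted p = 0.062). Only the LysM-Cre call kept its threshold when any 1 library was left out. Over the 15 glycolytic enzymes, 6 rose and 3 fell in SREBP2-deficient, 4 rose and 3 fell in LysM-Cre, 3 rose and 1 fell in IRF7-deficient and 3 rose and 2 fell in wild-type cells. Against the shares of all genes, which were 28.6% and 27.6%, 29% and 28.6%, 25.8% and 23.5%, and 24.9% and 22.5% for rising and falling in the same genotypes, these counts stood above only for the 6 that rose in SREBP2-deficient cells. The median log2 fold change of the 15 was 0.16, -0.04, 0.31 and 0.19.

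Of the HIF subunits, Hif1a fell with RANKL and Arnt did not pass the test. Hif1a, the oxygen-regulated alpha subunit, whose control is known to act mainly on the protein, had 87.8 and 78.8 CPM in SREBP2-deficient and 98.1 and 72.3 CPM in LysM-Cre osteoclasts, against 116 and 152 CPM and 158 and 132 CPM in macrophages. In IRF7-deficient and wild-type osteoclasts it had 80.0 and 70.6 CPM and 65.8 and 68.7 CPM, against 185 and 144 CPM and 162 and 121 CPM in macrophages. The groups did not overlap in any genotype (log2 fold changes -0.69 ± 0.19, -0.77 ± 0.19, -1.13 ± 0.18 and -1.07 ± 0.18, SE), and the SREBP2-deficient call was lost without replicate 2 of the macrophages (adjusted p = 0.091) or of the osteoclasts (0.060). Arnt had log2 fold changes of -0.05 to 0.20. Egln1, the main prolyl hydroxylase of HIF, was called lower in LysM-Cre cells alone (-0.35 ± 0.13, SE, adjusted p = 0.043), a call that was lost with DESeq2 (0.10) and the edgeR likelihood ratio test (0.073), without either osteoclast library (0.13 and 0.11) and without replicate 2 of the macrophages (0.25). P4ha1, a collagen prolyl hydroxylase that HIF induces, was called in no genotype (-0.51 to -0.30).

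Among the HIF targets, Bnip3, Vegfa and Ndrg1 rose in both genotypes of the SREBP2 experiment. Bnip3, a mitochondrial receptor for mitophagy, had 87.4 and 49.7 CPM in SREBP2-deficient and 62.0 and 47.8 CPM in LysM-Cre osteoclasts, against 21.0 and 19.4 CPM and 20.3 and 20.7 CPM in macrophages (log2 fold changes 1.77 ± 0.26 and 1.42 ± 0.25, SE, adjusted p = 5.6e-04 and 0.0015), and kept both calls when any 1 library was left out. Vegfa, the growth factor of blood vessels, had 48.3 and 18.9 CPM and 41.6 and 24.2 CPM in SREBP2-deficient and LysM-Cre osteoclasts, against 4.09 and 7.04 CPM and 5.52 and 9.34 CPM in macrophages (log2 fold changes 2.57 ± 0.57 and 2.13 ± 0.54, SE). Without replicate 1 of the macrophages the Vegfa call failed in SREBP2-deficient (adjusted p = 0.052) and in LysM-Cre cells (0.081), and it failed in LysM-Cre cells also without replicate 1 of the osteoclasts (0.057). Ndrg1, a gene that hypoxia and differentiation induce, had 85.9 and 29.5 CPM and 60.3 and 39.1 CPM in SREBP2-deficient and LysM-Cre osteoclasts, against 19.0 and 18.3 CPM and 14.6 and 21.2 CPM in macrophages. Its calls (1.63 ± 0.51 and 1.47 ± 0.50, SE) were lost without replicate 1 of the SREBP2-deficient osteoclasts (log2 fold change 0.66) or either of their macrophage libraries, and in LysM-Cre cells without any 1 of the 4 libraries. Mxi1, a HIF-induced antagonist of MYC, was called in no genotype (0.31 to 0.56).

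In the IRF7 experiment the hypoxia-response and glycolysis genes separated the libraries by replicate number in both genotypes. Bnip3 had 192 and 42.8 CPM in IRF7-deficient osteoclasts and 178 and 41.7 CPM in wild-type osteoclasts, in each case replicate 1 and then replicate 2. In macrophages it was replicate 2 that was higher, with 21.4 and 47.9 CPM in IRF7-deficient and 20.9 and 50 CPM in wild-type cells. The ratio of the replicates was 4.48 and 4.26 in osteoclasts (replicate 1 over 2) and 2.24 and 2.39 in macrophages (replicate 2 over 1), and replicate 2 of the osteoclasts lay below replicate 2 of the macrophages in both genotypes. Its RANKL log2 fold changes, 1.77 ± 0.89 and 1.62 ± 0.88 (SE), were as large as in the SREBP2 experiment and were not called (adjusted p = 0.14 and 0.17).

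Egln3, the prolyl hydroxylase that HIF itself induces, showed the widest gap in osteoclasts. It had 10.2 and 0.603 CPM in IRF7-deficient and 9.58 and 0.459 CPM in wild-type osteoclasts, and 0.610 and 3.03 CPM and 0.238 and 3.76 CPM in macrophages. Ankrd37, an ankyrin-repeat gene induced by HIF, had 11.2 and 1.03 CPM in IRF7-deficient and 10.1 and 1.07 CPM in wild-type osteoclasts, and 0.436 and 4.66 CPM and 0.238 and 4.74 CPM in macrophages. Both genes were thus high in replicate 1 of the osteoclasts, intermediate in replicate 2 of the macrophages and at or below 1.07 CPM in the other 4 libraries. Both had their highest group means in the osteoclasts, where replicate 1 raised them. Their passing the filter may therefore depend on the split itself, and the counts over the list below include both genes. Neither was called with RANKL (adjusted p = 0.46 and 0.56 for Egln3, 0.52 and 0.59 for Ankrd37), and both stayed at or below 0.835 CPM in all 8 libraries of the SREBP2 experiment. Ddit4, which was not tested, had 4.68 and 0.948 CPM and 4.73 and 1.15 CPM in IRF7-deficient and wild-type osteoclasts, and 2.09 and 2.06 CPM and 1.03 and 2.29 CPM in macrophages.

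Ndrg1 and Vegfa followed the same split in osteoclasts, with 98.1 and 22.9 CPM and 87.4 and 25.0 CPM for Ndrg1 and 51.2 and 23.7 CPM and 47.0 and 21.1 CPM for Vegfa in IRF7-deficient and wild-type cells. Their macrophage libraries held 11.9 and 18.6 CPM and 12.4 and 16.8 CPM of Ndrg1 and 8.54 and 20.9 CPM and 8.96 and 14.6 CPM of Vegfa. Both had log2 fold changes above 1 that missed the threshold (adjusted p = 0.063 and 0.071 for Ndrg1, 0.081 and 0.062 for Vegfa). Among the enzymes, Pfkl, the liver-type phosphofructokinase, had 192 and 74.0 CPM in IRF7-deficient and 193 and 73.2 CPM in wild-type osteoclasts, against 87.3 and 134 CPM and 80.3 and 165 CPM in macrophages. Gpi1 had 1413 and 707 CPM and 1339 and 698 CPM in osteoclasts of these genotypes, against 802 and 904 CPM and 791 and 991 CPM in macrophages. Ldha had 1486 and 1091 CPM in IRF7-deficient and 1491 and 1029.9 CPM in wild-type osteoclasts, against 667 and 1239 CPM and 615 and 1417 CPM in macrophages. In each case the osteoclasts' replicate 1 and the macrophages' replicate 2 were the higher libraries, and the treatment groups overlapped for Pfkl, Gpi1 and Ldha in both genotypes.

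**Figure D3:**
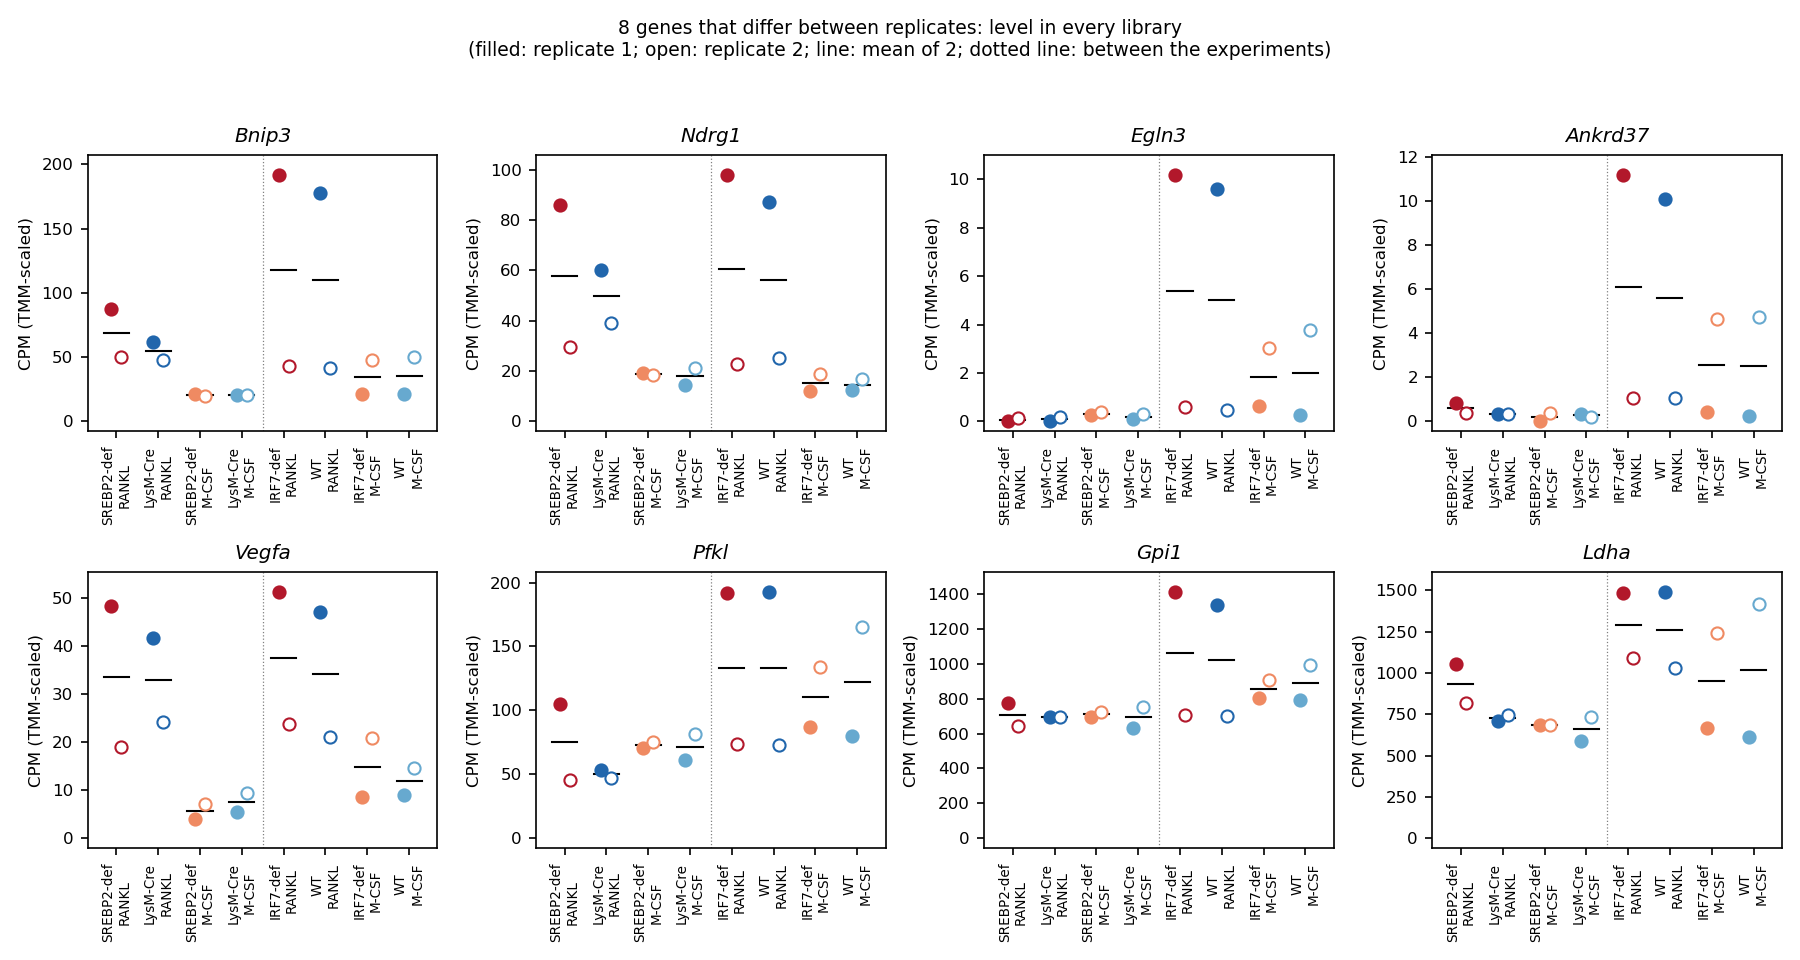
CPM (y axis, linear) in every library of the 8 groups (x axis) for 8 genes that differ between replicates, with filled points for replicate 1, open points for replicate 2 and a line at their mean. In the IRF7 experiment, right of the dotted line, replicate 1 is the higher library in both osteoclast groups and replicate 2 in both macrophage groups, and Egln3 and Ankrd37 are near 0 in the SREBP2 experiment.

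Counted over the list, 28 of the 33 genes were higher in replicate 1 of both osteoclast groups of the IRF7 experiment, and 16 of them by over 1.5-fold in both. In macrophages 22 of 33 were higher in replicate 2 of both genotypes, 8 of them by over 1.5-fold in both (Pfkl, Pgam1, Ldha, Pdk1, Bnip3, Egln3, Vegfa and Ankrd37). Of the 33 genes, 21 had both patterns. These joint patterns were not counted over all genes. Same-numbered libraries of the 2 genotypes deviated together over all genes too (r = 0.661 in osteoclasts and 0.364 in macrophages). By single group, replicate 2 was higher for 12.1% of the list in both osteoclast groups, against 48.7% (IRF7-deficient) and 48.9% (wild-type) of all genes. In IRF7-deficient and wild-type macrophages it was higher for 87.9% and 69.7% of the list, against 50.05% and 50.16% of all genes. The replicates differed by over 1.5-fold for 51.5% of the listed genes in IRF7-deficient and 51.5% in wild-type osteoclasts, where 14.6% and 12.5% of all genes did, and for 33.3% in IRF7-deficient and 45.5% in wild-type macrophages, where 7.17% and 8.04% of all genes did. Replicate 2 minus replicate 1 had a median of -0.58 in IRF7-deficient and -0.68 in wild-type osteoclasts and of 0.34 and 0.44 in macrophages on the log2 scale, with medians over all genes between -0.01 and 0.00. The gap was not even over the list. For the 5 HIF targets tested it had a median of -2.10 in IRF7-deficient and -1.8 in wild-type osteoclasts, and for the 15 glycolytic enzymes of -0.58 and -0.68. The 5 targets include Ankrd37, which may have passed the filter through this split. The other targets had gaps of -2.16 and -2.09 (Bnip3), -2.10 and -1.80 (Ndrg1), -1.11 and -1.15 (Vegfa) and -0.87 and -0.93 (Mxi1). For Pdha1, Pdhb, Dlat and Pdk1 the median gap was -0.17 and -0.23. Hk3, Ldhb and Dlat were higher in replicate 2 of both osteoclast groups. These gaps are a description of 4 pairs of libraries and were not tested.

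**Figure D4:**
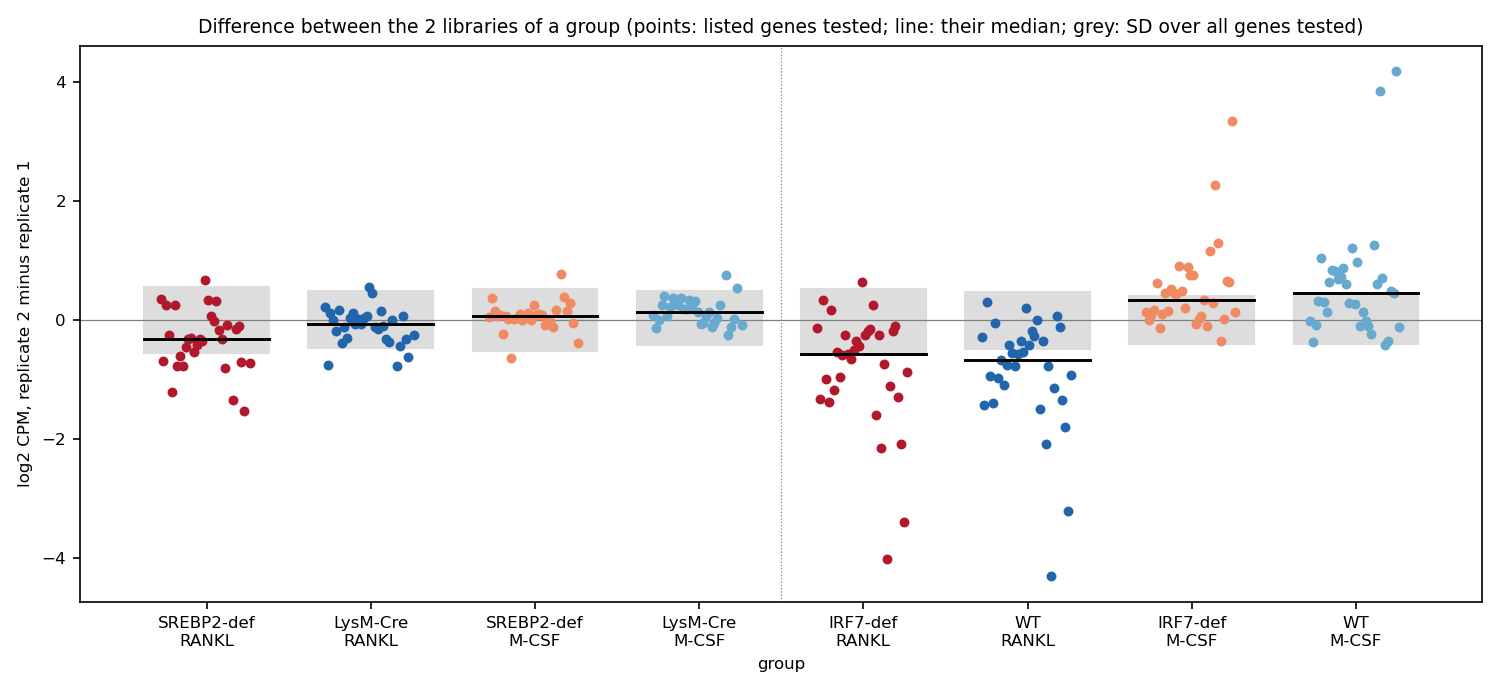
Replicate 2 minus replicate 1 in log2 CPM (y axis) for each listed gene tested, in the 8 groups (x axis), with the median of the listed genes as a line and the SD over all genes tested as a grey band. The medians of the IRF7 experiment lie at -0.58 and -0.68 in osteoclasts and at 0.34 and 0.44 in macrophages, while the grey bands are centred on 0.

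Other values also differed between replicates, and not all of them followed this split. The summed osteoclast markers were 59999.7 and 40525 CPM in IRF7-deficient and 56973 and 32176 CPM in wild-type osteoclasts (replicate 1 and then replicate 2), and 109 to 149 CPM in the macrophages of both genotypes. The summed neutrophil markers were 377 and 1177 CPM in IRF7-deficient and 295 and 604 CPM in wild-type macrophages, so that they too were higher in replicate 2. The summed B and T cell markers also were, with 5.67 and 18.1 CPM in IRF7-deficient and 10.6 and 14.9 CPM in wild-type macrophages and at most 0.184 CPM in osteoclasts. The summed stromal markers were 0.0872 and 9.96 CPM in IRF7-deficient and 0.159 and 0.327 CPM in wild-type macrophages, and 1.38 and 2.67 CPM in IRF7-deficient and 2.17 and 0.995 CPM in wild-type osteoclasts. The summed macrophage markers were higher in replicate 1 of every group of the IRF7 experiment, with 6933 and 6155 CPM in IRF7-deficient and 7954 and 7294 CPM in wild-type osteoclasts, and 35866 and 28033 CPM in IRF7-deficient and 34384 and 26028 CPM in wild-type macrophages. Replicate 1 of the wild-type osteoclasts was the shallowest library of the experiment at 8178505 counts, against 12275000 in replicate 2, while the IRF7-deficient osteoclasts had 11476563 and 11180215. The part of any of these in the split was not tested. Slc16a3 and Ak4, genes of the pathway that are not on the list, followed the split. They were picked after their values were seen, and the other off-list genes were not counted for it. Slc16a3, the lactate exporter MCT4, had 123 and 31.6 CPM in IRF7-deficient and 126 and 33.7 CPM in wild-type osteoclasts, against 31.4 and 97.7 CPM and 29.6 and 116 CPM in macrophages. Ak4, a mitochondrial adenylate kinase that HIF induces, had 26.1 and 1.98 CPM in IRF7-deficient and 16.5 and 1.22 CPM in wild-type osteoclasts, against 0.697 and 5.63 CPM and 0.317 and 5.72 CPM in macrophages.

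In the SREBP2 experiment the split was present in part. In SREBP2-deficient osteoclasts 24 of 31 genes were higher in replicate 1, and the replicates differed by over 1.5-fold for 35.5% of the listed genes, where 12.8% of all genes did. Replicate 2 was the higher one for 22.6% of the listed genes there, against 49.3% of all genes. In LysM-Cre osteoclasts the share over 1.5-fold was 9.68% of the list and 9.61% of all genes. Pfkl had 105 and 45.4 CPM in SREBP2-deficient and 53.2 and 46.9 CPM in LysM-Cre osteoclasts. Only Hk2, Vegfa and Ndrg1 were higher in replicate 1 by over 1.5-fold in both osteoclast groups. The 4 HIF targets tested were all higher in replicate 1 of both osteoclast groups. Their median of replicate 2 minus replicate 1 was -1.08 in SREBP2-deficient and -0.50 in LysM-Cre osteoclasts on the log2 scale. For the 15 glycolytic enzymes that median was -0.42 and 0.01. In macrophages the replicates differed by over 1.5-fold for 6.45% of the list in SREBP2-deficient and 3.23% in LysM-Cre cells, against 9.94% and 6.81% of all genes. Replicate 2 was the higher one for 74.2% and 71.0% of the list in these macrophages, against 50.2% and 55.3% of all genes. The median spread between replicates (SD of log2 CPM over the list) was 0.18 in the SREBP2 experiment and 0.45 in the IRF7 experiment.

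Loss of SREBP2 or of IRF7 changed none of the listed genes at an adjusted p under 0.05 in edgeR's quasi-likelihood test, in osteoclasts or in macrophages. In SREBP2-deficient against LysM-Cre osteoclasts 0 of 31 were called, where 0.0372% of all genes were, and 2 of 31 had an unadjusted p under 0.05, where 3.62% of all genes had. In SREBP2-deficient against LysM-Cre macrophages 0 of 31 were called (0.0557% of all genes) and 1 had an unadjusted p under 0.05 (1.32% of all genes). In IRF7-deficient against wild-type osteoclasts 0 of 33 were called (0.0185% of all genes) and 0 had an unadjusted p under 0.05 (2.94% of all genes), and in macrophages 0 were called (0.0185%) and 1 had an unadjusted p under 0.05 (1.31%). The edgeR likelihood ratio test, limma-voom and the DESeq2 Wald test called 0 of the listed genes in each of these comparisons too. These fits had no replicate block, and a block within each treatment, chosen after seeing the data, called Hk3 between IRF7-deficient and wild-type macrophages. The log2 differences between genotypes lay between -0.30 and 0.31 in the IRF7 experiment's osteoclasts and between -0.29 and 0.59 in those of the SREBP2 experiment. The median SE of a listed gene was 0.34 and 0.16 in these comparisons, which limits what 2 libraries a group could show. No difference in these ranges was called in the fit without a block.

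The genes with an unadjusted p under 0.05 were few. Pgk1 had 654 and 531 CPM in SREBP2-deficient osteoclasts, against 485 and 459 CPM in LysM-Cre osteoclasts (log2 difference 0.33 ± 0.13, SE, unadjusted p = 0.037 by edgeR, adjusted p = 1.0). Ldha had 1052 and 819 CPM in SREBP2-deficient, against 711 and 743 CPM in LysM-Cre osteoclasts (0.36 ± 0.15, unadjusted p = 0.043, adjusted p = 1.0). In both cases replicate 1 of the SREBP2-deficient osteoclasts, in which 24 of 31 listed genes were higher than in replicate 2, was farthest from the controls. Over the 31 genes, the median difference of SREBP2-deficient over LysM-Cre osteoclasts was 0.10. It was 0.02 without that library and 0.35 without replicate 2 of the SREBP2-deficient osteoclasts, and the list as a whole was not tested. In macrophages Aldoc had 17.9 and 11.4 CPM in SREBP2-deficient cells, against 27.0 and 33.9 CPM in LysM-Cre cells (-1.06 ± 0.31, unadjusted p = 0.011, adjusted p = 1.0). With no filter on low counts its adjusted p was 4.7e-06, and the cause of that shift was not tested. Hk3 had 331 and 352 CPM in IRF7-deficient macrophages, against 467 and 439 CPM in wild-type macrophages (-0.41 ± 0.15, unadjusted p = 0.028, adjusted p = 1.0), and 79.8 and 100.2 CPM in IRF7-deficient, against 99.3 and 122 CPM in wild-type osteoclasts (-0.30 ± 0.15, unadjusted p = 0.087). With a replicate block within each treatment, a fit chosen after seeing the data that rests on a pairing the labels do not state, the adjusted p of Hk3 in macrophages was 0.0086 by edgeR, at a log2 difference of -0.41. Between IRF7-deficient and wild-type osteoclasts the median difference was 0.10, and it was -0.25 without replicate 1 of the IRF7-deficient and 0.45 without replicate 1 of the wild-type osteoclasts.

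**Figure D5:**
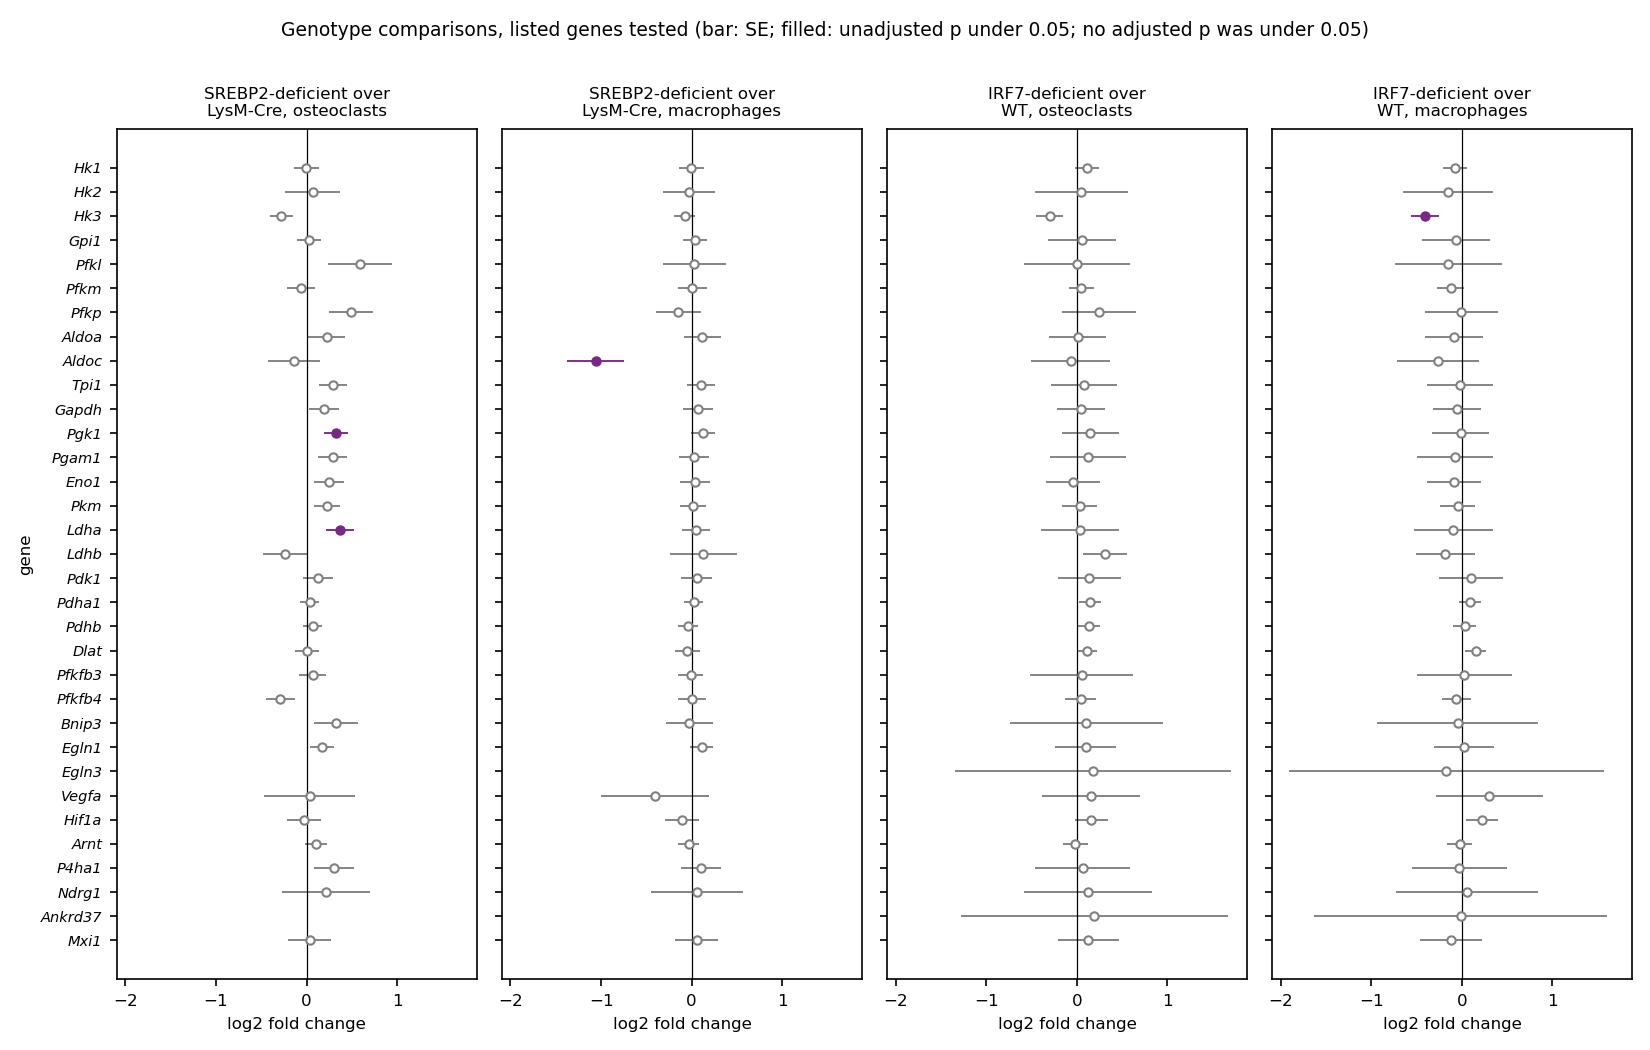
Log2 difference of each listed gene tested between genotypes (x axis), by gene (y axis, ordered by role), for SREBP2-deficient over LysM-Cre and IRF7-deficient over wild-type osteoclasts and macrophages, with the SE as a bar and genes with an unadjusted p under 0.05 filled. The filled points are Pgk1 (0.33) and Ldha (0.36) in SREBP2-deficient osteoclasts, Aldoc (-1.06) in SREBP2-deficient macrophages and Hk3 (-0.41) in IRF7-deficient macrophages.

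The response to RANKL did not differ detectably between genotypes. The interaction of SREBP2 genotype with RANKL was called for 0 of 31 listed genes and 0% of all genes, and an unadjusted p under 0.05 was found for 0 of 31, where 1.11% of all genes had one. The interaction of IRF7 genotype with RANKL was called for 0 of 33 and 0% of all genes, and an unadjusted p under 0.05 was found for 0 of 33, where 1.12% of all genes had one. The likelihood ratio test, limma-voom and DESeq2 called 0 listed genes in both. The smallest unadjusted p was that of Aldoc in the SREBP2 experiment (interaction 0.92 ± 0.42, SE, unadjusted p = 0.064 and adjusted p = 1.0 by edgeR). In the IRF7 experiment it was that of Ldhb (interaction 0.50 ± 0.41, SE, unadjusted p = 0.26 and adjusted p = 1.0 by edgeR).

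The other genes of the pathway were taken from lists of transporters, further isoforms, pyruvate entry and HIF signalling. Their counts are read against all genes, where 28.6% of all genes rose and 27.6% fell in SREBP2-deficient, 29% and 28.6% in LysM-Cre, 25.8% and 23.5% in IRF7-deficient and 24.9% and 22.5% in wild-type cells. Of the 10598 genes tested in both experiments, 20.2% rose and 16.3% fell in all 4 genotypes. Of the 9 pyruvate entry genes tested, 8 rose with RANKL in all 4 genotypes: the kinases Pdk2 (2.69, 3.17, 2.20 and 2.20 on the log2 scale in SREBP2-deficient, LysM-Cre, IRF7-deficient and wild-type cells) and Pdk3, the phosphatase Pdp2, the complex subunits Dld and Pdhx, the mitochondrial pyruvate carriers Mpc1 and Mpc2 (2.50, 2.43, 1.93 and 1.97) and pyruvate carboxylase Pcx. Of the 7 glucose and lactate transport genes, 1 rose in each genotype, Bsg, the chaperone of the lactate carriers. In the SREBP2 experiment 3 of the 7 fell in each genotype, and in the IRF7 experiment 1 fell in each. Slc2a3, the high-affinity glucose carrier GLUT3, fell in all 4 (-3.92, -3.69, -3.31 and -3.03). Of the 9 further isoforms and side enzymes, 2 rose and 3 fell in SREBP2-deficient, 4 rose and 4 fell in LysM-Cre, 2 rose and 2 fell in IRF7-deficient and 2 rose and 3 fell in wild-type cells. Pfkfb2, the heart-type PFKFB isoform, rose in all 4 (3.34, 2.97, 2.80 and 2.7), in contrast to Pfkfb3 and Pfkfb4. Ldhd, the D-lactate dehydrogenase of mitochondria, rose as well (4.03, 4.21, 3.11 and 3.96). Adpgk, an ADP-dependent glucokinase, fell in all 4 (-0.93, -0.88, -1.01 and -0.97).

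Of the further HIF pathway genes, 8 of 21 rose and 5 fell in SREBP2-deficient and in LysM-Cre cells, and of 22 tested in the IRF7 experiment 7 rose and 2 fell in IRF7-deficient and 7 rose and 4 fell in wild-type cells. The median log2 fold change of the list was 0.21, 0.20, 0.19 and 0.11 in these genotypes, with medians over all genes between 0.00 and 0.01. With 28.6%, 29%, 25.8% and 24.9% of all genes rising in the same order, the counts that rose were above these shares by fewer than 2 genes in each genotype, and the counts that fell were below the shares of all genes that fell. Bhlhe40, a transcriptional repressor, rose in all 4 (4.51, 4.30, 4.85 and 4.87 on the log2 scale in SREBP2-deficient, LysM-Cre, IRF7-deficient and wild-type cells). Gys1, glycogen synthase (1.64, 1.71, 1.8 and 1.89), and Hilpda, an inhibitor of fat breakdown in lipid droplets (0.97, 0.99, 2.14 and 1.91), rose in all 4. P4ha2, a further collagen prolyl hydroxylase, had log2 fold changes of -2.14, -2.10, -0.85 and -1.48 (adjusted p = 4.4e-05, 3.1e-05, 0.091 and 0.012 by edgeR). Hmox1, heme oxygenase, fell in all 4 (-3.27, -3.24, -4.79 and -4.75). Named HIF targets therefore moved in both directions with RANKL.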

How the data were processed

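Poly(A) RNA of 16 libraries was sequenced in read pairs from a stranded mRNA kit. Per the submitters' processing notes, bcl2fastq 1.8.4, fastp, STAR 2.7.3a and edgeR were used with the mouse build mm10. How reads were assigned to genes (tool, strand option, gene models) is not given in the sources used here. Whole-number counts of reads per gene were analysed as deposited by the authors, who gave them for all genes and for a filtered gene set in 1 workbook an experiment. The authors' log2 CPM sheets were not used, and 0 columns of other series were met. Total counts per library, 7703178 to 13387849, set the counting error. Groups followed the labels.

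The filtered sets (10764 and 10788 genes) were scaled by TMM and fitted per experiment over all 4 groups with edgeR 4.0.16 (glmQLFit and glmQLFTest, R 4.3.3). Contrasts were RANKL against M-CSF per genotype, genotype per treatment, and their interaction, with Benjamini-Hochberg adjustment over all genes tested and a threshold of 0.05. SEs were taken from the same fits, and plotted and printed CPM are TMM-scaled. Because nothing in the labels says what a replicate number shares, p-values measure the spread between these libraries. The scripts were tested on simulated data with known fold changes. Alternatives were DESeq2 1.42.0, limma-voom 3.58.1, the edgeR likelihood ratio test, other scalings and filters, the 2 groups alone, a replicate block, and leaving out libraries.

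The genes and lists were chosen with earlier results of these data known. All 34 genes are named, and library values are given for genes called with RANKL that were called in the same direction in both experiments or changed at least 2-fold, or that were called between genotypes. Values for Pkm, Aldoa, Ldha, Pfkl, Gpi1, Pgk1, Egln3, Ankrd37 and Ddit4 were added after they were seen. Of these, Pkm also met the rule, since it was called lower in both experiments. Of the other lists, genes were named by smallest p, apart from Slc16a3, Ak4 and the remaining pyruvate entry genes called, which were added after their values were seen. Coordinates are of GRCm38 (mm10), and promoters are RefSeq's for GRCm38.p6. Shared 50-base stretches were counted between exon sequences of annotated genes.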

Additional observations from a re-analysis of the deposited data

How the results depend on the processing

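None of the 67 single-gene results changed direction under any alternative run, and leaving out 1 library lost the call in 34 refits and left 234 on the same side of the threshold. Most counts of listed genes called with RANKL stayed within 1.5 times under the other tools, scalings and filters. The exceptions were in the IRF7 experiment, where 26 genes were called in IRF7-deficient and 22 in wild-type cells without a filter on low counts. A replicate block gave 21 calls in SREBP2-deficient, 19 in LysM-Cre, 13 in IRF7-deficient and 13 in wild-type cells, and 0 between genotypes. For this block and for the fit without a filter, the share of all genes called is not given here. Their counts therefore say nothing particular to the list. A replicate block fitted within each treatment, which was chosen after seeing the data, gave 27 calls in IRF7-deficient and 24 in wild-type cells, where 67.6% and 66.6% of all genes were called. Same-numbered osteoclast libraries of the 2 genotypes deviated from their group means together (r = 0.661 over all genes in the IRF7 experiment and 0.651 in the SREBP2 experiment), while over the listed genes osteoclast and macrophage libraries of the same number deviated in opposite directions in the IRF7 experiment. The labels do not say that a number marks a shared animal or day, so a paired reading is a hint from the data and not from the design. The block within each treatment called 1 listed gene between IRF7-deficient and wild-type macrophages (Hk3), and the fit without a filter called 1 between SREBP2-deficient and LysM-Cre macrophages (Aldoc). At an unadjusted p under 0.05, 2 genes passed between SREBP2-deficient and LysM-Cre osteoclasts, 1 between their macrophages and 1 between IRF7-deficient and wild-type macrophages. With library totals in place of TMM, the median over the list in SREBP2-deficient cells was 0.23. With ACGTG as the only core, 57.6% of the genes had a match.

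Leaving out libraries, 1 at a time or both of a number, gave these ranges, in which the counts are not set beside the share of all genes called. The RANKL count was 12 to 22 in SREBP2-deficient, 14 to 21 in LysM-Cre, 10 to 17 in IRF7-deficient and 9 to 18 in wild-type cells. The RANKL median was 0.15 to 0.62, 0.08 to 0.30, -0.092 to 0.84 and -0.22 to 0.76 in the same genotypes. The genotype median was 0.024 to 0.35 in osteoclasts and -0.05 to 0.06 in macrophages for SREBP2, and -0.25 to 0.45 and -0.29 to 0.21 for IRF7. The interaction median was 0.0021 to 0.30 for SREBP2 and -0.20 to 0.47 for IRF7. With 2 libraries a group, the median SE of a genotype difference was 0.16 in the SREBP2 and 0.34 in the IRF7 experiment, which limits what could be seen.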

Other observations

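Gm6123, an annotated near-copy that shares 30.3% of the 50-base stretches of Pdhb, split by replicate number in the SREBP2 experiment. It had 63 and 2 counts in SREBP2-deficient and 56 and 5 counts in LysM-Cre osteoclasts (replicate 1 and then replicate 2), against 12 and 0 counts and 15 and 1 counts in macrophages. In the IRF7 experiment it had 4 and 9 counts in IRF7-deficient and 1 and 7 counts in wild-type osteoclasts, against 2 and 1 counts and 3 and 3 counts in macrophages. Replicate 1 was thus the higher library in all 4 groups of the SREBP2 experiment, while Pdhb itself differed little between replicates there. The split was noticed in the data and was not tested.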
